A study of Mus musculus with 6 samples.

Results

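Chemokine and sphingosine 1-phosphate receptors are G protein-coupled receptors that steer T cells between blood, lymph nodes and tissues. CCR7 draws T cells into lymph nodes along CCL19 and CCL21, and S1PR1 lets them leave again along sphingosine 1-phosphate (S1P). CXCR3, CCR2, CCR8 and CXCR6 guide effector cells to inflamed or barrier tissues, and CXCR4 responds to CXCL12, the chemokine of bone marrow. Naive T cells express Ccr7 and S1pr1, and activation typically lowers both and raises the inflammatory receptors.

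The genes described are Ccr7, S1pr1, S1pr4, Ccr2, Ccr8, Cxcr3, Cxcr4 and Cxcr6, 8 of 18193 genes with a probe set of their own. All probe sets that the array's annotation assigns to exactly 1 of these symbols were taken, which gave 12 of 45101 probe sets: 4 for Ccr2, 2 for Cxcr6 and 1 for each of the others. The genes were chosen by name, with earlier results of these data known.

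The GFP positive cells carried a GFP fusion of a phosphorylation-deficient mutant of HDAC7, a class IIa deacetylase that acts as a repressor while it is in the nucleus and is exported once phosphorylated. The control was the GFP negative cells that the sort separated from them after infection, so both groups had been exposed to the retrovirus. Cells with GFP alone were not analysed here. Both groups were cytotoxic T cells grown from spleens of C57Bl/6 mice with the P14 T cell receptor transgene, activated for 24 h with the gp33 peptide that this receptor recognises. There were 3 samples of each group, 1 array each. The labels call them biological replicates without saying that each had its own animal or culture, and the p-values therefore cover the spread among these 6 samples, which may be technical. The sources used here give neither the age of the mice nor the promoter of the construct.

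The median log2 signal of an array lay between 1.63 and 1.72, and the TrpnX controls, probe sets for a bacterial gene, averaged 0.597 to 0.720, so values near those lie close to background. The Hdac7 probe set 1420812_at read 8.15 ± 0.05 in GFP positive and 4.83 ± 0.03 in GFP negative cells (log2, SD, n = 3 each), while 1420813_at read 6.19 ± 0.02 in GFP positive and 6.74 ± 0.08 in GFP negative cells. The sources used here do not give the part of the transcript that each probe set matches or that the construct carries. Of the CD8 T cell markers, Cd8b1 averaged 10.70 in GFP positive and 9.55 in GFP negative cells, and Cd3d 10.33 in GFP positive and 10.38 in GFP negative cells. Of 27022 probe sets tested, 32.5% changed between the groups at an adjusted p under 0.05 (limma, Benjamini-Hochberg), 19.3% higher and 13.2% lower in GFP positive cells. The groups did not overlap in 48.2% of them.

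The receptors did not move in 1 direction. Cxcr3 and Cxcr4 rose in GFP positive cells, by 1.12 and 1.26 on the log2 scale. Both Cxcr6 probe sets fell, by 0.98 and 1.13, and Ccr7 fell by a small 0.31. The S1P receptor genes S1pr1 and S1pr4 and the brightest Ccr2 probe set did not pass, and Ccr8 and the other 3 Ccr2 probe sets were too dim to be tested. Of the 8 probe sets tested, 2 rose and 3 fell, which sets 5 of 8 beside the 32.5% called among all probe sets. In 6 of the 8 the groups did not overlap, against 48.2% of all. Cxcr6 counts with 2 probe sets here, and the genes were chosen with earlier results of these data known. These counts are therefore a description. By gene, on the brightest probe set, 2 of 7 rose and 2 fell, beside 37.5% called among all genes. Among the 18015 brightest probe sets alone, 8289 were called. A bulk array cannot tell fewer cells with a transcript from less of it per cell.

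**Figure D1:**
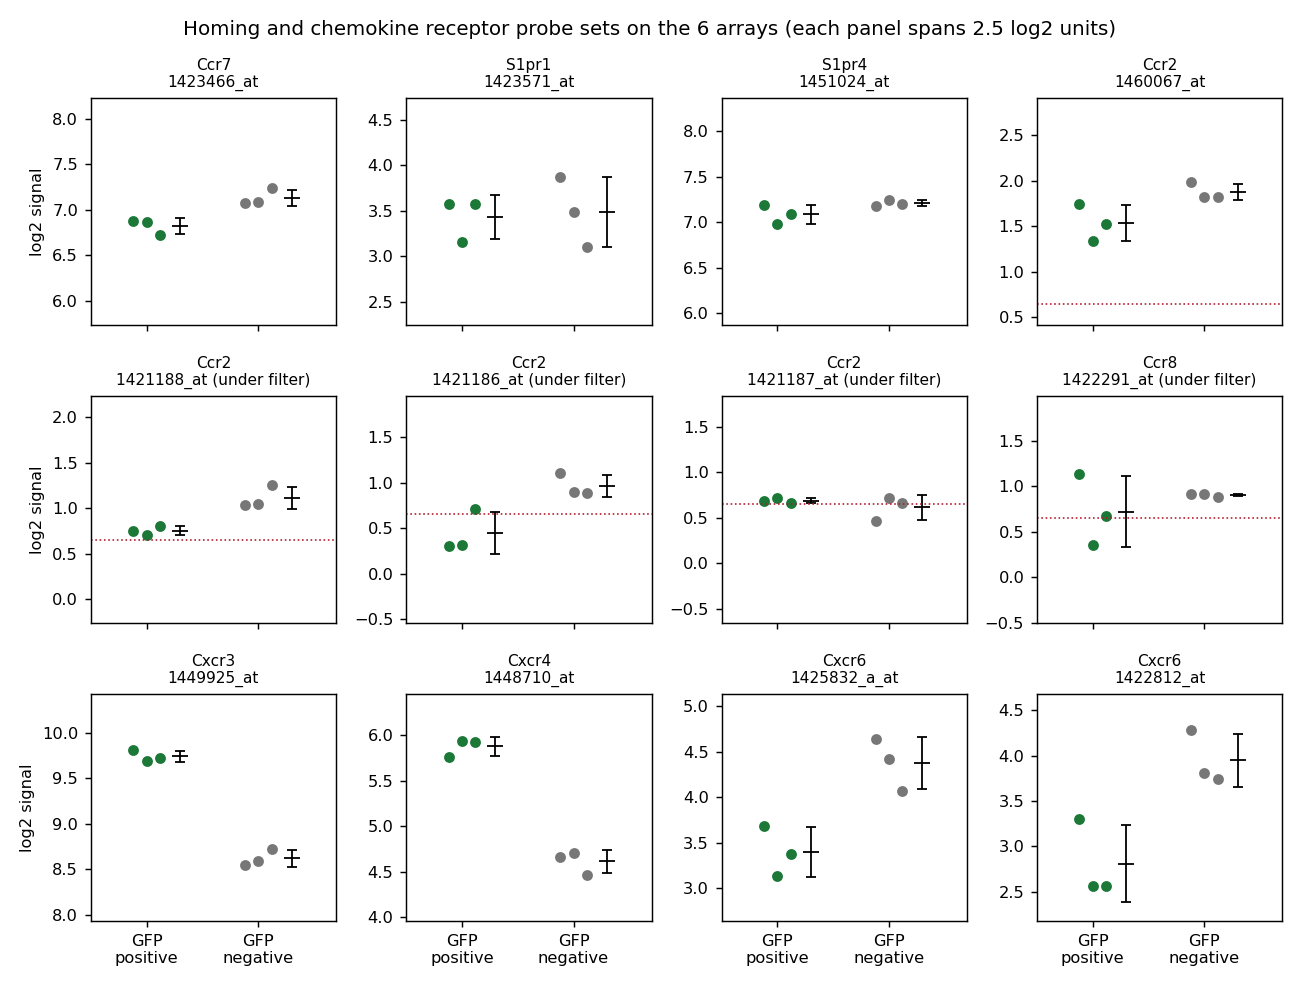
Log2 signal of the 12 receptor probe sets in each of the 3 GFP positive (green, left) and 3 GFP negative (grey, right) samples. Black marks are the mean ± SD of each group, each panel spans 2.5 log2 units around its own values, and the dotted line, where in range, is the mean of the TrpnX control probe sets; Cxcr3 and Cxcr4 are higher in all 3 GFP positive samples and both Cxcr6 probe sets lower.

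Among the receptors of inflamed tissue, Cxcr3, the receptor of the interferon-induced chemokines CXCL9, CXCL10 and CXCL11, rose clearly. Its probe set 1449925_at read 9.81, 9.69 and 9.72 in the GFP positive samples, against 8.54, 8.59 and 8.72 in the GFP negative samples. All 3 GFP positive samples lay far above the GFP negative ones, and the samples of each group lay close together. The change was 1.12 ± 0.09 (SE), or 2.18-fold, with a limma adjusted p of 2.3e-04. It stayed between 1.01 and 1.17 under all 15 alternatives tried, with limma adjusted p of at most 0.0096.

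Cxcr4, whose ligand CXCL12 holds cells in bone marrow and guides T cells within tissues, rose as well. On 1448710_at the GFP positive samples read 5.76, 5.94 and 5.93, against 4.66, 4.71 and 4.47 in the GFP negative samples. The groups were again far apart. The change was 1.26 ± 0.10 (SE), or 2.40-fold (limma adjusted p = 2.4e-04). With 32 added to every value in linear units, a scale that damps dim signals, it was 0.68 (limma adjusted p = 6.1e-04).

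Cxcr6, the receptor of the membrane-bound chemokine CXCL16 and a marker of T cells in liver and other tissues, went the other way on both of its probe sets. On 1425832_a_at the GFP positive samples read 3.68, 3.13 and 3.38, against 4.64, 4.42 and 4.07 in the GFP negative samples. On 1422812_at the GFP positive samples read 3.30, 2.57 and 2.57, against 4.29, 3.81 and 3.74 in the GFP negative samples. All 3 GFP positive samples lay below all 3 GFP negative ones on both probe sets, and the spread within groups was wider than for Cxcr3 and Cxcr4. The changes were -0.98 ± 0.18 and -1.13 ± 0.23 (SE), with limma adjusted p of 0.0056 and 0.0076. With 32 added in linear units they were -0.31 and -0.28, still past the threshold at 0.020 and 0.027. Without GFP positive 3 and GFP negative 1 together, both were -0.84 and no longer passed (limma adjusted p = 0.066 and 0.080). That fit had fewer samples, and over all probe sets it called 4374, against 8786 with all 6 arrays. Both Cxcr6 probe sets passed in each fit that left out 1 sample (limma adjusted p at most 0.024 and 0.032).

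The promoters of these 3 receptor genes are shown because their transcripts changed most among the receptors, in opposite directions. Each window runs from 250 bases before to 50 bases after the annotated start (RefSeq, GRCm38.p6), 5′ to 3′ on the gene's strand. Capitals mark the CACCC box bound by Krüppel-like factors (CACCC, or GGGTG on the other strand) and the RUNX motif (TGCGGT or TGTGGT, or ACCGCA or ACCACA on the other strand), which share no bases here. The Cxcr3 window is chrX:101734098-101734397 (minus strand), that of Cxcr4 chr1:128592250-128592549 (minus strand) and that of Cxcr6 chr9:123806227-123806526 (plus strand).
Cxcr3: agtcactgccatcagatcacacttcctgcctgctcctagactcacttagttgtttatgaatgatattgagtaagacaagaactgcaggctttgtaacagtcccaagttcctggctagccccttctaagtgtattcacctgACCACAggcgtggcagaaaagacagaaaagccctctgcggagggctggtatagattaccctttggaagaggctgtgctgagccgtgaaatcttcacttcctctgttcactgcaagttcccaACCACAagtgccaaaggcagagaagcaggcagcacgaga
Cxcr4: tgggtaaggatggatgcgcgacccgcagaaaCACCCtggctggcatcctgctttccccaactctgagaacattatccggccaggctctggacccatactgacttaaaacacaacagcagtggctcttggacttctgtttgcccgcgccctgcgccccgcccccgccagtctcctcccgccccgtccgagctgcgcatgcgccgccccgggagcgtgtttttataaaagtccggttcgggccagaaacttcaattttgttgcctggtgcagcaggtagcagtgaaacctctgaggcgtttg
Cxcr6: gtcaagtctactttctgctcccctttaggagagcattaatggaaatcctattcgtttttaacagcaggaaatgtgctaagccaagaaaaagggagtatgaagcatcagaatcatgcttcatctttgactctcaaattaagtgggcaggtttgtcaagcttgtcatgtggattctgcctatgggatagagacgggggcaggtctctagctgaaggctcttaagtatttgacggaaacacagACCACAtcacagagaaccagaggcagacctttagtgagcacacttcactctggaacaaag

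Cxcr3 has the RUNX letters at 2 places, starting 110 bases before the start and at base 12 after it, and no CACCC box. Cxcr4 has 1 CACCC box, starting 219 bases before the start, and no RUNX motif, and Cxcr6 has the RUNX letters 10 bases before the start and no CACCC box. Among all 32851 promoter windows of that length, 57.5% hold a CACCC box and 22.4% a RUNX motif. The MEF2 motif, named for the factors that class IIa deacetylases bind, is in 3.19% of windows and in 0 of the 6 receptor windows available, which also include Ccr2, Ccr8 and S1pr4. A match is only a run of letters. The Cxcr3 and Cxcr6 windows both hold the RUNX letters, and a part of any motif in the changes was not tested.

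Ccr7 and the S1P receptors concern entry to and exit from lymph nodes. The Ccr7 probe set 1423466_at read 6.87, 6.87 and 6.72 in the GFP positive samples, against 7.08, 7.08 and 7.24 in the GFP negative samples. The 3 GFP positive samples were the lower ones without overlap, and the SD was 0.09 in each group. The change of -0.31 ± 0.09 (SE), 1.24-fold lower, had a limma adjusted p of 0.035. It no longer passed with the replicate number as a block (adjusted p = 0.068), in 5 of 6 fits that left out 1 sample (changes from -0.34 to -0.26), or without GFP positive 3 and GFP negative 1 together (-0.29, adjusted p = 0.135). It passed without GFP positive 1.

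S1pr1, the receptor that T cells need to leave lymph nodes, read 3.57, 3.15 and 3.57 on 1423571_at in the GFP positive samples, against 3.88, 3.49 and 3.11 in the GFP negative samples. The groups overlapped, and all 3 GFP positive values lay between the lowest and the highest GFP negative value. The difference was -0.06 ± 0.20 (SE; limma adjusted p = 0.85), with a 95% confidence interval from -0.53 to 0.41. S1pr4, a lymphocyte receptor of the same family, read 7.19, 6.98 and 7.09 in the GFP positive samples, against 7.18, 7.25 and 7.21 in the GFP negative samples. The groups overlapped, since GFP positive 1 read like the controls, and the difference of -0.13 had an interval from -0.33 to 0.08 (limma adjusted p = 0.30).

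Ccr2, the monocyte and effector T cell receptor of CCL2, was dim on all 4 probe sets. The brightest, 1460067_at, read 1.74, 1.34 and 1.53 in the GFP positive samples, against 1.98, 1.82 and 1.82 in the GFP negative samples. The GFP positive samples were the lower ones without overlap, but the difference of -0.34 ± 0.12 (SE) did not pass (limma adjusted p = 0.061). It passed with the replicate number as a block (adjusted p = 0.040), in the fit of 1 probe set per gene (0.044), after median centring (-0.46, 0.031) and without GFP positive 1 (-0.44, 0.020), and was -0.03 with 32 added in linear units. The other 3 Ccr2 probe sets averaged 0.442 to 0.752 in GFP positive and 0.612 to 1.11 in GFP negative cells, under the filter on dim probe sets and close to the TrpnX controls. On 2 of these 3 the GFP positive samples also lay below the GFP negative ones, and with no filter these 2 passed (limma adjusted p = 0.030 and 0.025), while on the third, 1421187_at, the groups overlapped.

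Ccr8, a receptor of CCL1 found on skin-homing and regulatory T cells, read 1.13, 0.353 and 0.673 on 1422291_at in the GFP positive samples, against 0.911, 0.912 and 0.886 in the GFP negative samples. These values surround the level of the TrpnX controls, the groups overlap, and no test was made. The filter on dim probe sets lay at a mean log2 signal of 1.27.

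**Figure D2:**
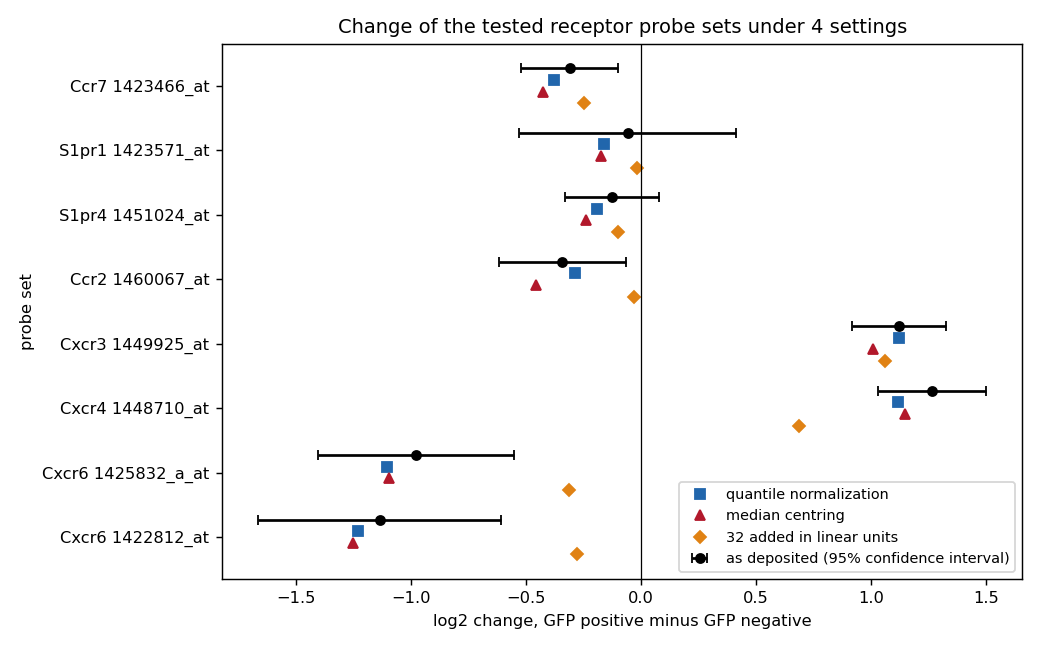
Log2 change (horizontal axis, GFP positive minus GFP negative) of the 8 tested receptor probe sets as deposited, with 95% confidence intervals from limma, and the change after quantile normalization, median centring or the addition of 32 in linear units. Cxcr3 and Cxcr4 stay above 0 and both Cxcr6 probe sets below 0 under all 4 settings, while the added 32 shrinks Cxcr4 to 0.68 and Cxcr6 to -0.31 and -0.28.

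How the values of a receptor ran over the 6 arrays was compared with all other tested genes, each on its brightest probe set and centred on its mean. The nearest to Cxcr3 were Iffo2 and Nusap1, at root mean square differences of 0.038 and 0.054 log2 units, and to Cxcr4 Lpin1 and Etfbkmt, at 0.030 and 0.042. Those nearest to Cxcr6 were Pik3ap1 and Klf9, at 0.10 and 0.13, to Ccr7 Cabp7 and Gm9899, to S1pr1 Lamc1 and Gm14137, to S1pr4 Mfn2 and Yeats4, and to Ccr2 Drd4 and Acta1. The measure includes the difference between the groups, and it is given as a description.

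The genes around the receptors were described from lists by role, each gene on its brightest tested probe set. These lists too were chosen with earlier results of these data known. Among all 13194 genes on that measure, 37.5% were called, 22.6% higher and 14.9% lower, with a median change of -0.02, and the groups did not overlap in 53.8%. Other chemokine receptors gave 9 tested genes, of which 2 rose and 1 fell while 6 stayed short of the threshold, with a median change of -0.21. Ccr4, the receptor of skin-homing and helper T cells, read 3.02, 3.47 and 3.27 in GFP positive samples, against 2.67, 2.67 and 2.83 in GFP negative samples, a rise of 0.53 (limma adjusted p = 0.015). Ccrl2, which binds chemerin and does not signal by itself, rose by 0.56, and Ackr1, a chemokine scavenger of red cells and vessels, fell by 0.41, to 1.64 in GFP positive cells against 2.05 in GFP negative cells. With 32 added in linear units, Ccr4 and Ccrl2 kept their calls at 0.11 and 0.10 (limma adjusted p = 0.042 and 0.046), while Ackr1 was -0.04 and did not pass (0.125). Cxcr5, the receptor that guides lymphocytes into B cell follicles, read 2.34, 4.35 and 3.49 in GFP positive samples, against 1.92, 2.99 and 2.83 in GFP negative samples. The groups overlapped and the difference of 0.81 did not pass (limma adjusted p = 0.24), but it passed with the replicate number as a block (0.027). Without GFP positive 3 and GFP negative 1 together, a fit with fewer samples, 0 of the 9 genes passed by limma. With all 6 arrays, 2 were higher and 1 lower. With all 6 arrays, 4 of the 9 had an unadjusted limma p under 0.05. So did 11981 of all 27022 probe sets tested, and 6699 of 13194 genes in the fit of 1 probe set per gene. Of Ackr4, a scavenger of CCL19 and CCL21, the brightest probe set changed by -0.24 without passing, whereas another one, 1437668_at, rose by 0.81. The brightest one passed after median centring (limma adjusted p = 0.045).

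In the list of other S1P receptors and S1P metabolism, limma called 1 of 9 tested genes higher and 0 lower. The median change was 0.15, and 3 of the 9 had an unadjusted p under 0.05, beside 6699 of 13194 genes. The 1 that rose was S1pr2, a receptor that inhibits migration towards S1P, in contrast to S1pr1. It read 4.48, 4.51 and 4.34 on 1428176_at in GFP positive samples, against 3.24, 3.35 and 2.83 in GFP negative samples, with no overlap. The change was 1.30 ± 0.14 (SE; limma adjusted p = 6.1e-04), and 0.40 with 32 added in linear units. A second S1pr2 probe set, 1447880_x_at, changed by 0.24 and did not pass (limma adjusted p = 0.085). Sgpp1, an S1P phosphatase gene, changed by -0.29, Cers2, a ceramide synthase gene, by 0.24 and the S1P transporter gene Spns2 by 0.19, all short of the threshold. Sgpp1 passed after quantile normalization (limma adjusted p = 0.041) and median centring (0.037), and Cers2 with 32 added in linear units (0.046).

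Of the chemokine ligands of the receptors, 7 genes passed the filter. Limma called 2 of 7 lower and 0 higher (median change -0.31). Of these 7, 3 had an unadjusted p under 0.05, beside 6699 of 13194 genes. Ccl2 and Ccl8 changed by -0.35 and -0.39 but averaged only 1.49 and 1.69 in GFP negative cells, and both changes were -0.03, no longer called, with 32 added in linear units. Ccl2 also did not pass after quantile normalization (-0.27, limma adjusted p = 0.055). Cxcl16, the ligand of CXCR6, read 3.23 ± 0.19 in GFP positive and 3.57 ± 0.09 in GFP negative cells (SD, n = 3 each; limma adjusted p = 0.056), and passed after quantile normalization (0.030) and median centring (0.027). Cxcl10, a ligand of CXCR3, changed by -0.31 with overlapping groups.

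**Figure D3:**
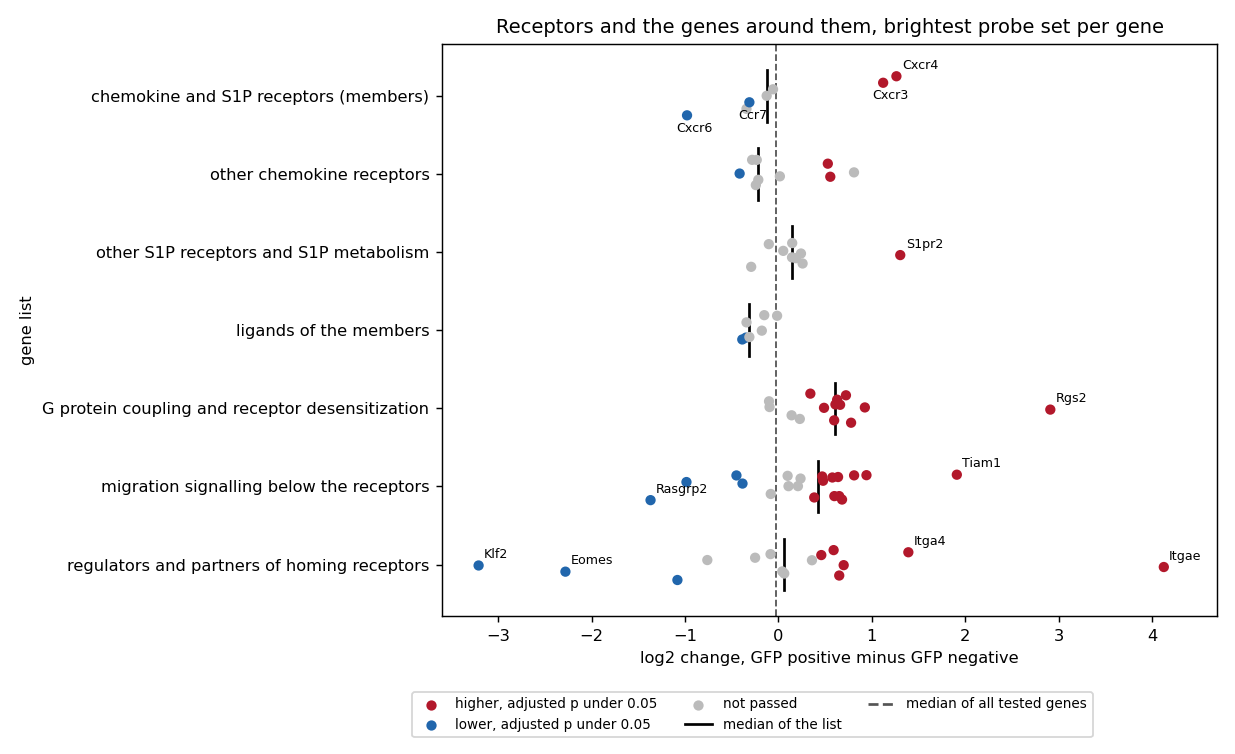
Log2 change (horizontal axis, GFP positive minus GFP negative) of each tested gene on its brightest probe set, in the 7 gene lists set down the page. Red and blue points passed the threshold, short black bars are list medians and the dashed line is the median of all tested genes at -0.02; most G protein coupling genes lie to its right, while the chemokine receptor lists lie on both sides.

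Genes listed under G protein coupling and receptor desensitization were mostly higher. Limma called 10 of 14 higher and 0 lower, with a median change of 0.60. The same number, 10, had an unadjusted p under 0.05, beside 6699 of 13194 genes. The inhibitory G protein alpha subunits through which chemokine receptors signal, Gnai2 and Gnai3, rose by 0.60 and 0.34, the beta subunit gene Gnb2 by 0.63 and the gamma subunit gene Gng2 by 0.78. Gnai2 read 9.74, 9.61 and 9.93 in GFP positive samples, against 9.07, 9.10 and 9.32 in GFP negative samples, so the groups stood apart at a high signal. A second Gnai3 probe set, 1437225_x_at, changed by -0.64 without passing.

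The same list holds genes that end receptor signalling. Rgs2 is of a family that speeds the return of G proteins to their inactive state. Whether it acts on the receptors described here was not tested. It read 5.63, 4.97 and 5.09 in GFP positive samples, against 2.28, 2.41 and 2.28 in GFP negative samples. All 3 of its probe sets past the filter rose, by 2.91, 2.39 and 2.33, and the brightest changed by 0.92 with 32 added in linear units. Rgs1, which limits chemokine responses of lymphocytes, rose by 0.72, the receptor kinase genes Grk5 and Grk6 by 0.66 and 0.49, and the arrestin gene Arrb1 by 0.93, while Arrb2 changed by -0.09 and Rgs16 by -0.10 and neither passed. The probe sets of Grk3 lay under the filter. Pik3r5, the adaptor of the kinase PI3K gamma below these receptors, rose by 0.61 and its catalytic partner Pik3cg changed by 0.14 without passing. Rgs1 did not pass after quantile normalization, median centring or the addition of 32, nor Gnai3 after median centring, which left 9, 8 and 9 of the 14. Without GFP positive 3 and GFP negative 1 together, a fit with fewer samples, 5 of the 14 rose.

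In the migration machinery below the receptors, 11 of 20 genes rose and 4 fell, with a median change of 0.43. Tiam1 and Prex1, activators of the GTPase RAC, rose by 1.91 and 0.94, Rac2 itself by 0.60 and its activator Dock2 by 0.58. Tiam1 read 5.26, 5.09 and 5.52 in GFP positive samples, against 3.49, 3.30 and 3.34 in GFP negative samples, well clear of each other, and changed by 0.75 with 32 added in linear units. The actin regulator genes Was and Myo9b rose by 0.68 and 0.48, and Dock8, an activator of CDC42, by 0.38. Dock8 did not pass after quantile normalization (limma adjusted p = 0.110), median centring (0.117) or the addition of 32 (0.050). Rac1 and Coro1a, short of the threshold as deposited, passed with 32 added (limma adjusted p = 0.027 and 0.0087). On that scale 12 of the 20 genes were higher.

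Genes of the RAP1 arm, which turns a chemokine signal into integrin adhesion, split. Rasgrp2, which activates RAP1, read 6.28, 6.20 and 6.11 in GFP positive samples, against 7.67, 7.56 and 7.47 in GFP negative samples, a fall of 1.37 ± 0.09 (SE; limma adjusted p = 1.5e-04) with no overlap. Rap1a and Rap1b fell by 0.38 and 0.45. The effector gene Rassf5 rose by 0.47, its kinase partner Stk4 by 0.65, and the integrin activators Tln1 and Fermt3 by 0.81 and 0.64. Ptk2b, a focal adhesion type kinase gene, read 3.99 ± 0.18 in GFP positive and 4.97 ± 0.03 in GFP negative cells (SD, n = 3 each), a fall of 0.98. Without GFP positive 3 and GFP negative 1 together, a fit with fewer samples, 9 of the 20 rose and 2 fell.

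Among regulators and partners of homing receptors, 6 of 15 rose and 3 fell, with a median change of 0.06. Klf2, a factor known to drive S1pr1 transcription in T cells, read 3.59, 3.59 and 3.56 in GFP positive samples, against 6.75, 6.98 and 6.63 in GFP negative samples. It thus fell by 3.21 ± 0.11 (SE; limma adjusted p = 1.3e-05) in samples in which the S1pr1 difference did not pass. Cd69, whose protein draws S1PR1 from the cell surface, read 5.30, 5.28 and 5.35 in GFP positive samples, against 6.58, 6.27 and 6.32 in GFP negative samples, a fall of 1.08. Eomes, a T-box factor of effector and memory cells, fell by 2.28. The change of its relative Tbx21, a known activator of Cxcr3, was 0.06 and did not pass.

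The integrin genes of the list, whose products bind ligands on vessel walls and epithelium, rose, Itgae by 4.13, Itga4 by 1.39, Itgb7 by 0.65 and Itgal by 0.59. Itgae averaged 5.89 in GFP positive and 1.76 in GFP negative cells. Klf3 rose by 0.70 on its brightest probe set, while others of its probe sets lay between -0.26 and 0.87. Foxp1 rose by 0.46 but did not pass after median centring (limma adjusted p = 0.051). Foxo1, an activator of Klf2 and Ccr7, changed by 0.36 on its brightest probe set without passing and rose by 0.63 on a second one. Itgae, Klf2, Eomes, Itga4 and Cd69 changed by 1.39, -1.70, -1.53, 0.75 and -0.69 with 32 added in linear units.

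Of the 40 genes of these 6 lists that changed, 28 passed in each of the 6 fits that left out 1 sample. The other 12 lost the call in at least 1 of these fits. How many of all called genes held in all 6 was not computed. Over all probe sets, 6290 to 9518 were called with 1 sample left out, against 8786. Ccrl2 passed in 5 of 6, Ccr4, Arrb1 and Grk5 in 4, Rap1a in 3, Ackr1, Rgs1, Gnai3, Dock8 and Foxp1 in 2, and Ccl2 and Ccl8 in 1.

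**Figure D4:**
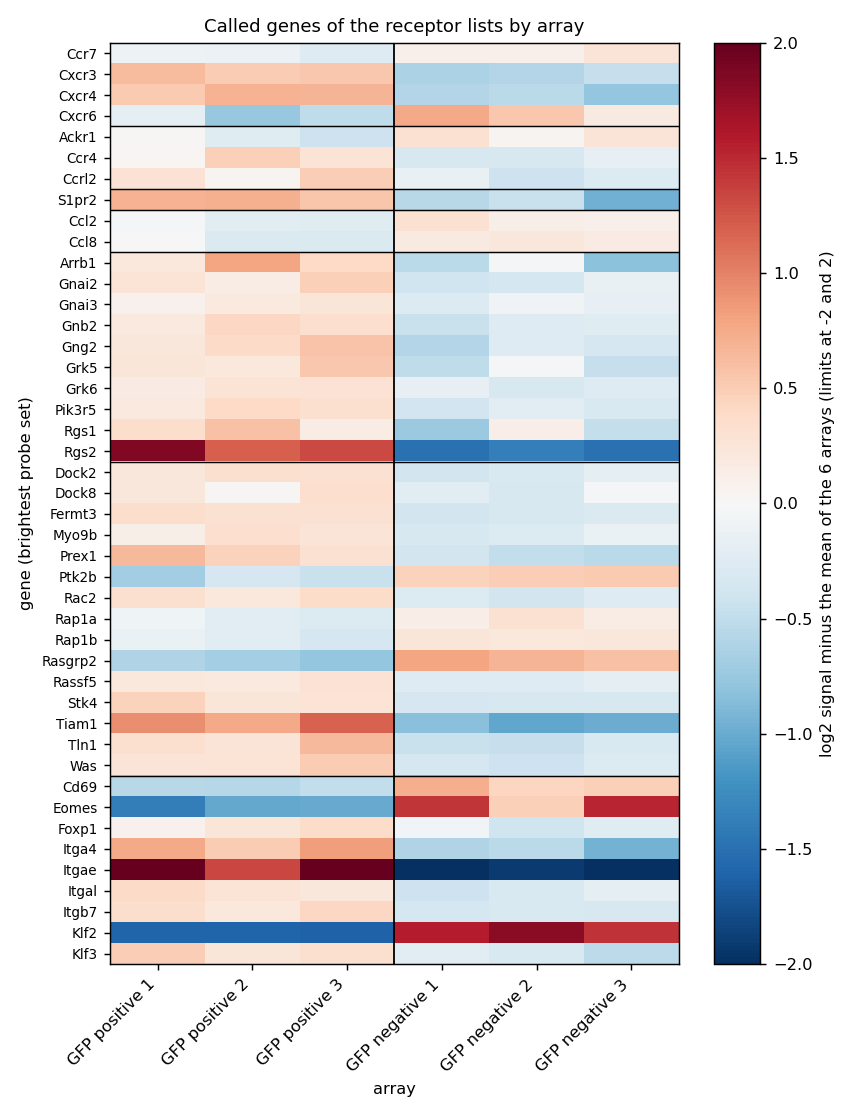
Log2 signal minus the mean of the 6 arrays (colour, limits at -2 and 2) for every gene of the 7 lists that passed the threshold, on its brightest probe set, with the 3 GFP positive samples left and the 3 GFP negative samples right. Horizontal lines separate the lists in the order of the list plot; Rgs2, Tiam1, Itgae, Klf2 and Eomes show a strong contrast, and Ccr7 a faint one.

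Markers of other cells that carry these receptors were measured beside them. Of 5 dendritic cell genes tested 2 fell, Flt3 by 0.47 and Zbtb46 by 0.47, and the log2 of the summed linear signal of the list's brightest probe sets was 4.17 to 4.35 in GFP positive and 4.49 to 5.27 in GFP negative samples. H2-Aa, chosen after its values were seen, read 1.32, 0.949 and 1.97 in GFP positive samples, against 1.26, 1.47 and 4.17 in GFP negative samples, so GFP negative 3 stood apart. Of 4 monocyte and macrophage genes tested 1 rose, Cd68 by 1.11, and the list's sum was 4.64 to 4.72 in GFP positive and 4.47 to 4.66 in GFP negative samples, while Csf1r averaged 2.66 in GFP positive and 2.98 in GFP negative cells. Of 4 B cell genes 0 passed by limma and 0 had an unadjusted p under 0.05, beside 6699 of 13194 genes. Cd79b, the brightest, averaged 4.35 in GFP positive and 4.50 in GFP negative cells, and Cd22 2.10 and 2.39. For Cd22, GFP negative 3 read 3.01, against 2.28 and 1.87 in GFP negative 1 and 2. The B cell sums were 5.01 to 5.29 in GFP positive and 5.08 to 5.49 in GFP negative samples. NK cell genes summed to 3.56 to 3.65 in GFP positive and 3.81 to 4.04 in GFP negative samples, and Fcer1g fell by 0.54. CD4 and regulatory T cell genes summed to 7.88 to 8.26 in GFP positive and 8.34 to 9.06 in GFP negative samples, and of 4 tested Zbtb7b rose by 0.42 and Ctla4 fell by 0.63. Ctla4, which activated CD8 T cells express too, made up most of that sum, at 7.90 in GFP positive and 8.53 in GFP negative cells, while Cd4 averaged 2.82 in GFP positive and 2.87 in GFP negative cells. Of the erythroid and platelet genes Itga2b was tested and fell by 0.47, with list sums of 3.81 to 4.02 in GFP positive and 4.14 to 4.33 in GFP negative samples. The CD8 T cell list summed to 12.88 to 13.06 in GFP positive and 12.32 to 12.62 in GFP negative samples, and 4 of its 6 genes rose. Itgam and Ncr1, dim markers of the monocyte and NK cell lists, were near the TrpnX controls in both groups. Itgam averaged 0.787 in GFP positive and 0.796 in GFP negative cells, and Ncr1 0.853 and 0.846. Ms4a1, a B cell gene, averaged 0.827 in GFP positive and 1.26 in GFP negative cells, where GFP negative 3 read 2.04. Foxp3, the factor of regulatory T cells, read 0.772, 0.734 and 0.734 in GFP positive samples, against 1.41, 0.979 and 1.19 in GFP negative samples, without overlap and under the filter. The part of these cells in the receptor values, of which Ccr7 and Ccr2 are known from dendritic cells and monocytes, was not tested.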

How the data were processed

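RNA of 3 GFP positive and 3 GFP negative samples was measured, per the labels, on 6 Affymetrix whole-genome mouse arrays. The authors deposited log2 signals of 45101 probe sets, made with Affymetrix Expression Console per the submitters' processing notes; the sources used here do not give its algorithm or normalization. The deposited log2 values were used without rescaling. Gene names came from the platform annotation, in which 34945 probe sets have 1 symbol, 932 several and 9160 are not listed, and 64 are controls. Probe sets with a mean log2 signal under the 40th percentile (1.27) were left out, which left 27022. Groups were compared with limma 3.58.1 in R 4.3.3 (two-sided, Benjamini-Hochberg over all probe sets tested, threshold 0.05). The procedure was first run on simulated data with few changed probe sets and independent samples, a setting unlike these data. An exact permutation test of 3 against 3 samples cannot go below p = 0.1, so none was run. Precision is limited by having 6 arrays.

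The receptors and lists were chosen with earlier results of these data known. The named genes are all receptors, those of each other list past the threshold on their brightest tested probe set, and the 2 nearest profiles of each receptor. Some genes next by p and the brightest markers of most lists were added. Cxcr5, Pik3cg, Arrb2, Rgs16, Grk3 and Tbx21 were named outside these rules, after their values were seen. So were the markers Itgam, Ncr1, Ms4a1, Cd4 and Foxp3. Same-numbered samples deviated together, with correlations of 0.47, 0.35 and 0.25 over 13194 genes and 0.30, 0.24 and 0.08 over all probe sets tested. Pairs with unlike numbers lay between -0.33 and 0.04 over these genes and between -0.25 and 0.07 over all probe sets tested. Deviations were taken from each group's own mean, so the unlike-numbered values are not independent of the same-numbered ones. The main fit held the group only and ignores any pairing. The replicate number from the sample titles was taken as a pairing in an alternative fit. Values with it as a block are given where they change the call of a gene on its brightest probe set. Alternatives were quantile normalization, median centring, 32 added in linear units, no filter or one at the 60th percentile, 1 probe set per gene, a trended robust variance prior, the block, each sample left out, and GFP positive 3 and GFP negative 1 left out together.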

Additional observations from a re-analysis of the deposited data

How the results depend on the processing

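Cxcr3 and Cxcr4 kept their direction and call in all 15 alternatives (1.01 to 1.17 and 0.68 to 1.32). Under the replicate block, Ccr7 was -0.31 and no longer passed (limma adjusted p = 0.068), Ccr2 1460067_at was -0.34 and passed (0.040), as did Cxcr5 at 0.81 (0.027), which took other chemokine receptors to 5 called probe sets. The calls of the other receptor genes described, and of the other listed genes on their brightest probe sets, did not change under the block. Ccr7 ranged from -0.34 to -0.26 with 1 sample left out. Ccr2 passed at -0.46 after median centring and at -0.34 in the fit of 1 probe set per gene, and ranged from -0.44 to -0.24 with 1 sample left out. Without GFP positive 3 and GFP negative 1 together, Ccr7 was -0.29 and both Cxcr6 probe sets -0.84, short of the threshold with fewer samples, and 2 receptor probe sets were called, against 5 with all samples.

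Over all probe sets, 8786 were called, 5557 with 1 probe set per gene, 4374 without those 2 samples, and 6290 to 9518 with 1 left out. Higher calls made up 59.4% on the deposited scale, 49.9% with quantile normalization and 39.3% with median centring. Median centring put the median change of all probe sets at -0.14, against -0.02 on the deposited scale. Called probe sets of other chemokine receptors numbered 4, and 2 with the filter at the 60th percentile or without those 2 samples (2 to 7 with 1 left out). For S1P genes they numbered 2, against 5 after median centring and 1 with no filter, the stricter filter, 1 probe set per gene, the replicate block or without those 2 samples (1 to 2 with 1 left out). For ligands they numbered 2, against 1 with the stricter filter and 0 with 32 added or without those 2 samples (0 to 3 with 1 left out). With 1 probe set per gene, G protein coupling had 10 (18 over all probe sets), migration 15 (33) and regulators 9 (23), with fewer probe sets tested. Without those 2 samples, G protein coupling had 11 and migration 21. Where no cause is named, the cause was not tested.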

Other observations

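Cxcr6 lies within Fyco1 on mouse chromosome 9, on the opposite strand, in a stretch that also holds Lztfl1, Ccr9, Xcr1, Ccr1, Ccr1l1, Ccr3 and Ccr2. Fyco1, an adaptor of vesicle transport, averaged 3.43 ± 0.10 in GFP positive and 2.92 ± 0.02 in GFP negative cells (SD, n = 3 each), a rise of 0.51 on 1427177_at (limma adjusted p = 0.0036), while Cxcr6 inside it fell. A second Fyco1 probe set changed by 0.47 with overlapping groups and did not pass. Lztfl1, a regulator of ciliary trafficking, rose by 0.47 on 1417170_at (limma adjusted p = 0.042), although the groups overlapped, and changed by 0.07 on another probe set without passing. The probe sets of Ccr9, Xcr1, Ccr1, Ccr1l1 and Ccr3 all lay under the filter. The choice of these neighbours, by position, came after their values were seen.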
